A study of Mus musculus with 24 samples.

Results

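The heat shock and chaperone genes examined here were Hspa1a, Hspa1b, Hspa5, Hspa8, Hsph1, Hsp90aa1, Hsp90ab1, Dnajb1, Hspd1 and Hspb1. Their members among the accessible regions were all consensus intervals whose nearest annotated transcription start site (TSS) belonged to one of these genes, which gave 34 of 145143 intervals. Open chromatin was read by ATAC-seq, which tags accessible DNA with a transposase, in mouse embryonic stem cells given doxycycline the day after seeding. The study asked whether induction of the long noncoding RNA Firre alters accessibility, with control lines that also received the drug. The 4 lines were a Firre KO line with an inducible Firre transgene (labelled Rescue; knockout Firre line), a wild type line with such a transgene (labelled OE; wild type Firre line), a Firre knockout control (knockout control) and a wild type control, the controls being described as genetically matched. All cells were kept on gelatin with LIF, a MEK inhibitor and a GSK3 inhibitor. Each line was sampled at 0, 30, 60, 90, 120 and 150 min, with 1 library per line and time, and the 60 min library of the wild type Firre line was not used here. The groups therefore held 6, 5, 6 and 6 libraries in that order, the labels describe no separate cultures, and genotype and clone cannot be told apart. The labels do not say which promoter drives the transgene.

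Chaperones bind unfolded or partly folded proteins and help them fold. In the cytosol, the HSP70 proteins Hspa1a, Hspa1b and Hspa8 work with the J-domain protein Dnajb1, which delivers substrates and stimulates their ATPase, and with Hsph1, which exchanges their nucleotide. Hsp90aa1 and Hsp90ab1 are the inducible and constitutive cytosolic HSP90 proteins, Hspb1 is a small heat shock protein, Hspd1 is the mitochondrial chaperonin HSP60, and Hspa5 (BiP) is the HSP70 of the endoplasmic reticulum. Heat shock factors bind inverted repeats of GAA in many of these promoters, and stress of the endoplasmic reticulum acts on Hspa5 through a separate element. Several of these genes are transcribed at a high level in unstressed embryonic stem cells.

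Promoter sequences were available for 7 of the 10 genes in a RefSeq table of build GRCm38.p6, from 250 bases before to 50 bases after each start, and were not printed for Hspa8, Hsp90aa1 and Hsp90ab1. They are shown so that stress elements, present or not, can be read beside the accessibility of the same promoters, and each lies wholly within the interval that the results below turn on. Capitals mark the heat shock element cores GAANNTTC and TTCNNGAA, searched on both strands, and in Hspa5 the endoplasmic reticulum stress response element, CCAAT followed by 9 bases of any kind and CCACG. Matches that overlap are drawn as 1 capital run.
Hspd1 (chr1:55087883-55088182, minus strand): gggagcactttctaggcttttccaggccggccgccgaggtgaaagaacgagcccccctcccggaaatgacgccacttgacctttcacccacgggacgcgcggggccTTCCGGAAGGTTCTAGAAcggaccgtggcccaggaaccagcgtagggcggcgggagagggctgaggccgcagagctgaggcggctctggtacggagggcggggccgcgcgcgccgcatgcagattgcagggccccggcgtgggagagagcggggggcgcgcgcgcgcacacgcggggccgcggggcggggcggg
Hspa5 (chr2:34771840-34772139, plus strand): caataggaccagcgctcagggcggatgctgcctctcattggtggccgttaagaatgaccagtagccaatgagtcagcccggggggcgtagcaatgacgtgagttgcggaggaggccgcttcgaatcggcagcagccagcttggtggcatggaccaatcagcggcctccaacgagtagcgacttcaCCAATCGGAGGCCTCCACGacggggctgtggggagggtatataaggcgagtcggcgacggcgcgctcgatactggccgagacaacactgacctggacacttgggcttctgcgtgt
Hspb1 (chr5:135887669-135887968, plus strand): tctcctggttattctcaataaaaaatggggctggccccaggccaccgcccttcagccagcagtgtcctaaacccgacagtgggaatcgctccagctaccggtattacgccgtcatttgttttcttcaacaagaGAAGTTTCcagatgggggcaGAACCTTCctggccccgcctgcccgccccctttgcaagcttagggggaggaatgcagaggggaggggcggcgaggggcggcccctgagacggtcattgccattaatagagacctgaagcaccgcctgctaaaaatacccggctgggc
Hsph1 (chr5:149636287-149636586, minus strand): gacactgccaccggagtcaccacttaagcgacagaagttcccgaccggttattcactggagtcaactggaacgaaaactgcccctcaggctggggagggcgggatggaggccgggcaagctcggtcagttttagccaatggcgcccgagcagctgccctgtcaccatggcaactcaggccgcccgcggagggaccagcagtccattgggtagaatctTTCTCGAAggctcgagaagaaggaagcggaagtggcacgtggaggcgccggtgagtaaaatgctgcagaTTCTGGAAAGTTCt
Hspa1a (chr17:34972107-34972406, minus strand): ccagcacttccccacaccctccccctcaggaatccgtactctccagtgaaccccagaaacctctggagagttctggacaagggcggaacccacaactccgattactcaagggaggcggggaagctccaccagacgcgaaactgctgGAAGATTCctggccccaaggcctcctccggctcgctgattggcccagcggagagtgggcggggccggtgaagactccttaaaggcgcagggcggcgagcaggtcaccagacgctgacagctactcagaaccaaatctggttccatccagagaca
Hspa1b (chr17:34959189-34959488, minus strand): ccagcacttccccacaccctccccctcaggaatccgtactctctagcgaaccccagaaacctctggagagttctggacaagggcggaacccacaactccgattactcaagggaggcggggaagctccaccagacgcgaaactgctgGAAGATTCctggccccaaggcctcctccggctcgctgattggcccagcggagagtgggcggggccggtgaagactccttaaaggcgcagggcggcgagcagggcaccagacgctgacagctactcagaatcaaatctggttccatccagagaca
Dnajb1 (chr8:83607925-83608224, plus strand): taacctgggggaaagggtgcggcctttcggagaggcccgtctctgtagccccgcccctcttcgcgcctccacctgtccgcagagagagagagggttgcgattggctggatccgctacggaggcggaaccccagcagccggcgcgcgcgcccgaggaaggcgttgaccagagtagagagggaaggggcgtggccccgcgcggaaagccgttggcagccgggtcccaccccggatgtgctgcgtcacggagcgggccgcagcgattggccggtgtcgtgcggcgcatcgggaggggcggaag
Of 32851 promoters in that table, 15.1% held a heat shock element core of either form and 0.119% held the endoplasmic reticulum stress element. The table holds 2 starts each for Hspd1, Hsph1 and Dnajb1, and 1 is shown. The other Hspd1 window (chr1:55088194-55088493) held 0 cores, and the other Dnajb1 window also held 0. In the Hspd1 window shown the cores TTCCGGAA, GAAGGTTC and TTCTAGAA overlapped in a single run that began at position -144 from the start. Hsph1 had TTCTCGAA at position -33 and an overlapping pair, TTCTGGAA and GAAAGTTC, at positions 37 and 42. Hspb1 held GAAGTTTC at -117 and GAACCTTC at -97, and Hspa1a and Hspa1b each held GAAGATTC at -104. No core was found in the Dnajb1 and Hspa5 windows shown, and the Hspa5 window held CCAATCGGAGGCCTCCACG at position -65. The letters TATAAA, present in 13.6% of promoters, occurred in 0 of the 10 entries matched. The Hspa1a and Hspa1b windows were identical at 296 of 300 positions (98.7%), so how reads were divided between these near-identical genes is uncertain.

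Total counts per library ran from 5725518 to 14977148, with a median of 7664147, and 0 counts at that median would still allow 0.391 CPM (the read count scaled to library size, with TMM). Intronic intervals of Firre, 15 in number, summed to 0.51 to 0.86 CPM in the knockout Firre line, 64.1 to 85.4 in the wild type Firre line, 0 to 0.79 in the knockout control and 58.7 to 74.1 in the wild type control. Markers of embryonic stem cells had a promoter interval for 8 of 8 genes, which summed to 319.8 to 432.4 CPM. Fibroblast markers had one for 5 of 8 genes (77.7 to 93.5 CPM) and markers of differentiated embryo layers for 5 of 8 (96.1 to 115.7 CPM). The share of counts in promoter intervals averaged 41.8% ± 0.55 in the knockout Firre line, 40.8% ± 2.06 in the wild type Firre line, 42.1% ± 0.96 in the knockout control and 39.0% ± 0.59 in the wild type control (SD, n = 6, 5, 6 and 6). The highest share, 44.3%, was that of the 150 min library of the wild type Firre line.

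At least 1 interval was found for 9 of the genes. There were 9 for Hspa5, 7 for Hsph1, 6 for Hsp90aa1, 4 for Dnajb1, 2 each for Hsp90ab1, Hspd1 and Hspb1, and 1 each for Hspa1a and Hspa1b. Promoter intervals numbered 10 (within 1000 bp of the TSS or annotated as the gene's own promoter), and 24 lay elsewhere, 2812 to 46651 bp from the TSS. Hspa8, the constitutive HSP70, had 0, because the interval over its start (9:40800072-40801965, mm10) was assigned to the small nucleolar RNA gene Snord14c. That interval is given as the spanning interval of Hspa8 and is not counted. Several of the intervals outside promoters were annotated to neighbouring genes. They comprised 3 in introns of Gapvd1 and 2 at the end of Rabepk for Hspa5, and 3 in introns of Wdr95 for Hsph1, and another Hspa5 interval was the annotated promoter of Gapvd1.

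The chaperone promoters were among the more open in these cells, and Hspa1a and Hspa1b had the lowest values per kb of the group, with the limit that reads matching both near-identical copies may have been lost or split. The 10 promoter intervals had a median of 30.9 CPM per kb of interval, against 8.28 for all 23102 promoter intervals, and the 24 other intervals had 6.06, against 4.68 for all intervals. For the promoter interval with the highest mean CPM in each gene, called the leading promoter, the order ran from Dnajb1 at 46.7 ± 8.37 CPM per kb (SD over 23 libraries) to Hspa1b at 12.6 ± 1.61. Dnajb1 stood above Hsp90aa1 (34.6 ± 5.04) in 23 of 23 libraries and at percentile 99.4 of promoter intervals. Hsp90aa1, Hspd1 (33.3 ± 5.34), Hsph1 (32.2 ± 4.16), Hspa5 (31.2 ± 4.84) and Hsp90ab1 (30.7 ± 3.92) followed, and no neighbours among these differed by more than their SD. Hspb1 was lower, at 17.8 ± 2.10 CPM per kb, and below Hsp90ab1 in 23 of 23 libraries. Hspa1a had 12.8 ± 1.86, below Hspb1 in 23 of 23 libraries and not separated from Hspa1b, and Hspa1a and Hspa1b stood at percentiles 67.3 and 66.7. The spanning interval of Hspa8 had 46.6 CPM per kb, close to Dnajb1. The other Hsp90aa1 promoter interval, -100 bp from the annotated TSS, was not part of this order. It had 15.1 CPM per kb, below the mean of Hspb1, and stood at percentile 74.2 of promoter intervals.

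**Figure D1:**
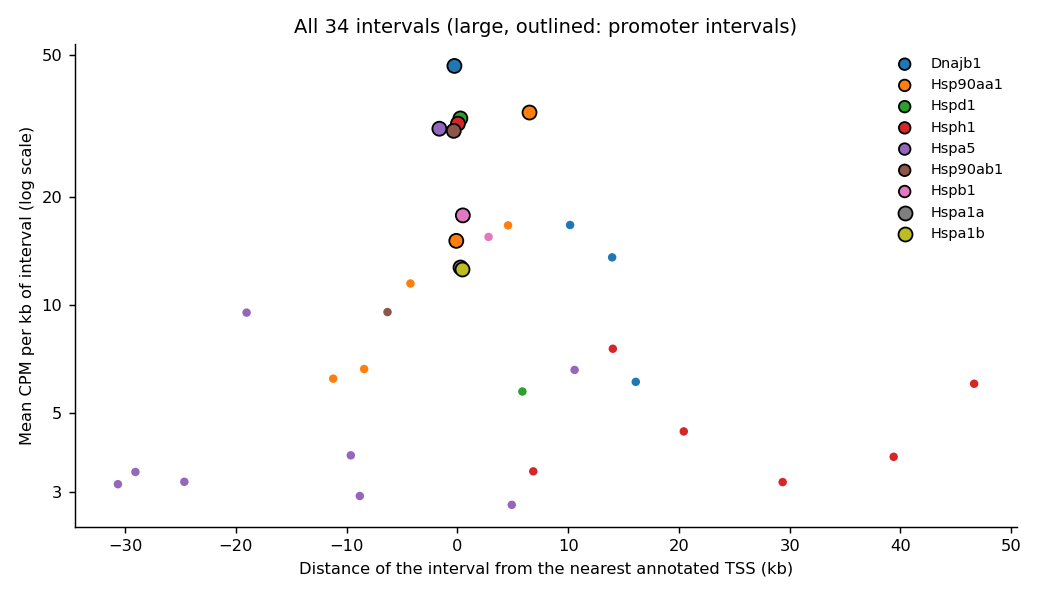
Mean level of each of the 34 intervals in CPM per kb of interval (vertical axis, log scale) against its distance in kb from the nearest annotated TSS (horizontal axis), coloured by gene; large outlined points are the promoter intervals. The promoter intervals lie between 12.6 and 46.7 CPM per kb, and the others between 2.76 and 16.8; the Hsp90aa1 promoter interval to the right of 0 lies 6511 bp from the TSS that the annotation gives as nearest.

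Away from promoters, the levels were lower. The highest per kb were an interval 10174 bp from the Dnajb1 TSS (8:83618343-83619112, intergenic) at 16.8 CPM per kb and one 4571 bp from the Hsp90aa1 TSS. The lowest, 2.76 CPM per kb, lay 4910 bp from the Hspa5 TSS. Narrow intervals of Hspa5 at -9624 bp and of Hsph1 at 6850 bp fell under the filter of 10 counts, so that 32 of the 34 intervals were tested, 10 of them in promoters.

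In the knockout background, presence of the Firre transgene was not accompanied by a called change at any of these genes. Of 32 intervals, 0 were called at an edgeR adjusted p of 0.05 or less, against 0.913% of all intervals. DESeq2 and limma-voom also called 0. The 10 promoters had a median log2 difference of 0.06, against -0.01 for all promoter intervals, and 7 of the 10 were positive. The smallest p belonged to the interval at -30649 bp from the Hspa5 TSS (2:34742518-34743517), in intron 1 of Gapvd1. It had 2.80, 3.67 and 4.75 CPM (lowest, median and highest) in the knockout Firre line and 1.14, 2.89 and 3.66 CPM in the knockout control. These ranges overlapped, and the log2 difference was 0.45 ± 0.19 (SE, edgeR adjusted p = 0.272). At the promoters the lines overlapped as well. Dnajb1 had 51.3, 61.4 and 70.1 CPM in the knockout Firre line and 51.0, 64.1 and 72.7 CPM in the knockout control. Hspb1 had 33.7, 39.6 and 41.1 CPM in the knockout Firre line and 28.2, 34.2 and 42.2 CPM in the knockout control, a log2 difference of 0.15 ± 0.08 (edgeR adjusted p = 0.461). Hspd1 had 42.6, 52.4 and 57.6 CPM in the knockout Firre line and 45.7, 58.8 and 65.9 CPM in the knockout control, a log2 difference of -0.14 ± 0.08 (edgeR adjusted p = 0.493).

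In the wild type background no chaperone interval passed the test either. Of 32 intervals 0 were called by edgeR, against 0.0818% of all intervals, and DESeq2 and limma-voom called 0. All 10 promoter differences were positive, with a median of 0.17 against 0.05 for all promoter intervals, but 7 were with total counts as scaling, 6 with loess offsets and 5 when the promoter share entered as covariate. The smallest p belonged to the Dnajb1 promoter. It had 48.9, 46.5, 55.0, 51.5 and 70.4 CPM at 0, 30, 90, 120 and 150 min in the wild type Firre line, and 36.8, 46.1, 46.7, 45.4, 48.8 and 45.3 CPM at 0 to 150 min in the wild type control. The 150 min library of the Firre line was the highest and the ranges overlapped, with a log2 difference of 0.27 ± 0.09 (edgeR adjusted p = 0.407). The Hsp90aa1 and Hsp90ab1 promoters, at 0.26 ± 0.09 and 0.25 ± 0.09, and the Hspd1 promoter, at 0.24 ± 0.09, likewise did not pass (edgeR adjusted p = 0.41, 0.45 and 0.503). The library of the Firre line at 150 min, whose share of counts in promoters was the highest, was also the highest of its line for 9 of 9 leading promoters. Apart from the fit with the promoter share as covariate, the part of that share in the result was not tested.

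The difference between backgrounds in the Firre line's effect was not called for any interval (0 of 32, against 0.266% of all intervals, with 0 called by DESeq2 or limma-voom). Its smallest p was at the Hspd1 promoter, -0.38 ± 0.12 (edgeR adjusted p = 0.182), with -0.14 ± 0.08 in the knockout and 0.24 ± 0.09 in the wild type background. These 2 comparisons use the same control libraries as the comparison of the controls that follows.

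**Figure D2:**
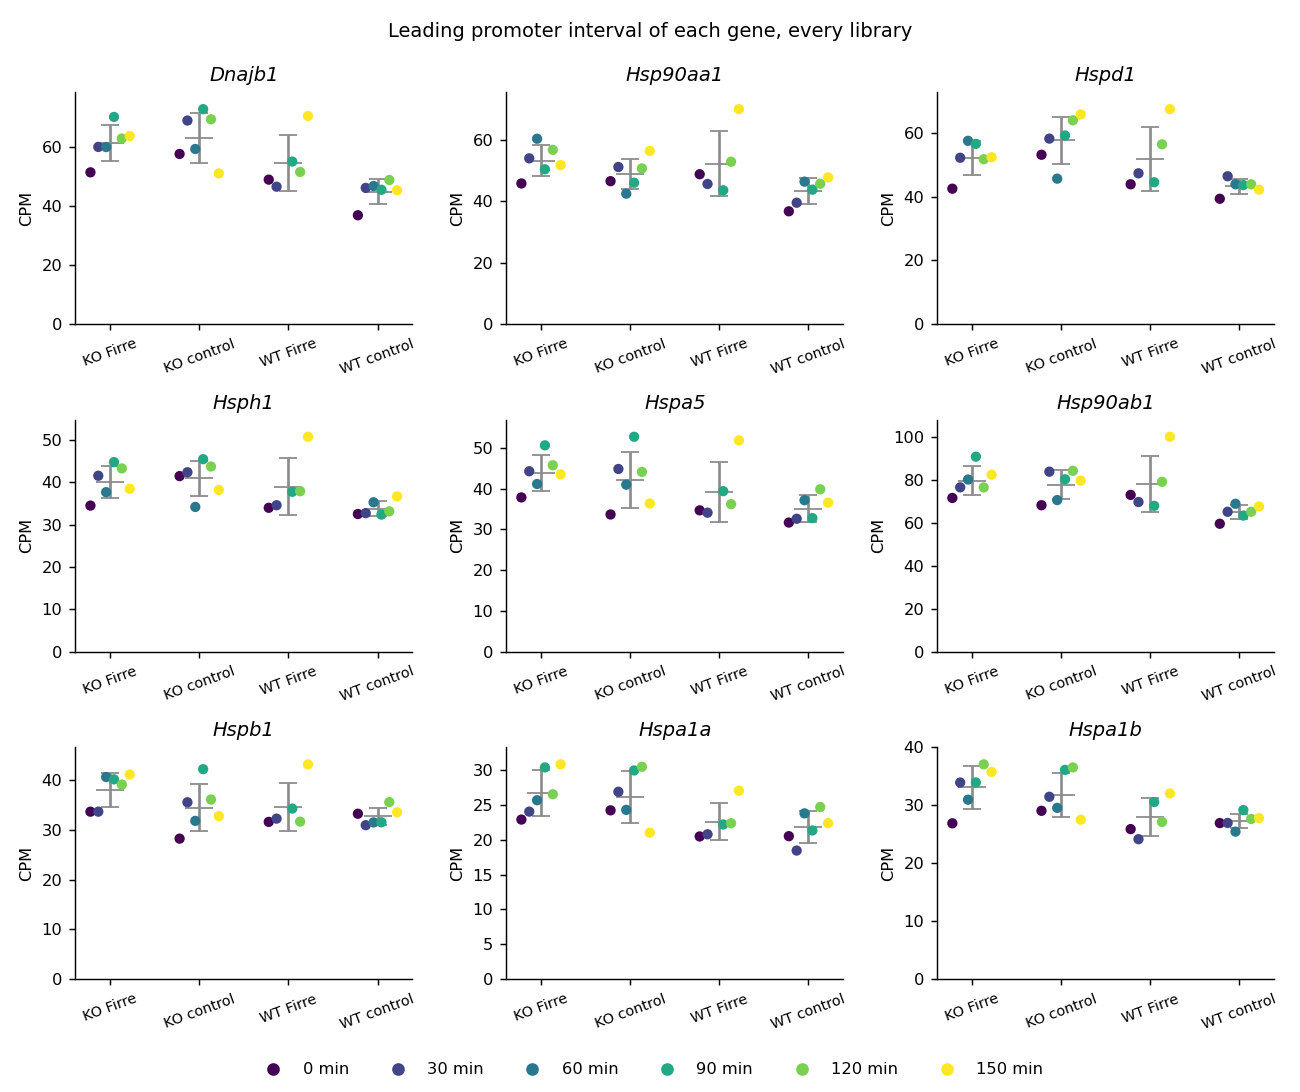
CPM of the leading promoter of each gene (vertical axes, from 0) in each library, by line (horizontal axis) and coloured by time; the grey bars are the mean and SD of each line. The knockout (KO) control lies above the wild type (WT) control without overlap for Dnajb1, and the WT Firre line at 150 min is the highest of its line in all 9 panels.

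Accessibility at some chaperone promoters, most clearly those of Dnajb1 and Hspd1, was higher in the knockout than in the wild type control. Called higher were 5 of 32 intervals and called lower were 0, against 5.5% of all intervals called higher and 2.47% called lower (7.97% either way). Of the 10 chaperone promoters 4 were called higher, against 16.4% of all promoter intervals. The chaperone promoters also had higher levels, with a median of 39.3 CPM against 11.1 for all promoter intervals. The part of this level in the calls was not tested. DESeq2 called the same number, 5 higher and 0 lower, and limma-voom 5 higher and 1 lower, the interval 4910 bp from the Hspa5 TSS (-0.57 ± 0.19, limma-voom adjusted p = 0.0474). With total counts 2 were higher, the Dnajb1 and Hspd1 promoters, and 3 lower, namely the Hspa5 intervals at 4910 bp (-0.65 ± 0.20) and -24653 bp (-0.88 ± 0.30) and the Hsph1 interval at 46651 bp (-0.38 ± 0.12). With TMM these had -0.56 ± 0.20, -0.78 ± 0.29 and -0.29 ± 0.12 and did not pass (edgeR adjusted p = 0.0623, 0.0776 and 0.127). With a minimum of 50 counts, 3 were higher and 1 was lower, the Hsph1 interval at 46651 bp. All 10 promoter differences were positive with TMM scaling, with a median of 0.25 against 0.09 for all promoter intervals, whereas 8 were with total counts, 6 with loess offsets and 3 when the promoter share was a covariate. Outside promoters 9 of 22 differences were positive, with a median of -0.11 against -0.02 for all intervals. Because ATAC-seq on many cells averages over them, a site open in more cells and a site more open in each cell cannot be told apart.

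Dnajb1, the J-domain partner of HSP70, had the largest of these differences. Its promoter (8:83607685-83608883) had 57.6, 68.9, 59.2, 72.7, 69.3 and 51.0 CPM at 0 to 150 min in the knockout control, all above every library of the wild type control, whose values are given above. Among the counted intervals, which leave out that spanning Hspa8, it was the 1 whose ranges did not overlap between these controls. This pattern was seen for 2.29% of all intervals and 7.47% of promoters in this direction. The mean was 63.1 ± 8.44 CPM in the knockout control and 44.9 ± 4.13 CPM in the wild type control (SD, n = 6 each), a log2 difference of 0.48 ± 0.09 (edgeR adjusted p = 4.02e-05). With loess offsets it was 0.18 ± 0.05 (edgeR adjusted p = 0.0198). The interval 10174 bp from the TSS was also higher, at 13.9 ± 2.41 CPM against 10.7 ± 0.81 CPM, with a log2 difference of 0.35 ± 0.10 (edgeR adjusted p = 0.0201). Its ranges overlapped, the knockout control reaching down to 9.90 CPM at 150 min, and the call did not hold without the knockout control at 0, 30, 90 or 120 min, or without the wild type control at 0, 30, 90 or 150 min (edgeR adjusted p up to 0.092). That call also ended with total counts (0.26), with loess offsets (0.28), with the promoter share as covariate (0.0098) and with the 30 and 90 min libraries of the knockout control left out (0.24). The other 2 intervals of Dnajb1, 13971 and 16102 bp away, were not called, at 0.19 ± 0.12 and 0.17 ± 0.12.

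Hspd1, the mitochondrial chaperonin, came next. Its promoter (1:55087205-55088745), which holds both Hspd1 windows, had 45.7, 58.8 and 65.9 CPM (lowest, median and highest) in the knockout control and 39.4, 43.8 and 46.5 CPM in the wild type control. One knockout control library, at 60 min, lay within the wild type range and the others above it. The log2 difference was 0.41 ± 0.09 (edgeR adjusted p = 4.33e-04). This call ended at a log2 difference of 0.13 with loess offsets and 0.11 once the promoter share was a covariate. The other Hspd1 interval, 5867 bp from the TSS and annotated as a transcription end, was not called. It had 3.33 ± 0.81 CPM in the knockout control and 3.15 ± 0.62 CPM in the wild type control.

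Of the cytosolic partners, Hsph1 and Hsp90ab1 passed by a small margin. The Hsph1 promoter (5:149635692-149636885) had 34.2, 41.9 and 45.5 CPM in the knockout control against 32.4, 33.0 and 36.7 CPM in the wild type control (lowest, median and highest), a log2 difference of 0.27 ± 0.09 (edgeR adjusted p = 0.0342). The Hsp90ab1 promoter (17:45572364-45574804) had 68.2, 80.0 and 84.3 CPM against 59.6, 65.2 and 68.9 CPM in the same order, a difference of 0.26 ± 0.08 (edgeR adjusted p = 0.0412). In each, 1 knockout control library fell within the wild type range, at 60 min for Hsph1 and at 0 min for Hsp90ab1. Neither call held when the knockout control at 0, 30, 90 or 120 min, or the wild type control at any time other than 60 min, was left out, and that of Hsp90ab1 also ended without the knockout Firre line at 30 to 150 min or the 0 min library of the wild type Firre line (edgeR adjusted p up to 0.13 for Hsph1 and 0.146 for Hsp90ab1). Both calls also ended in other settings, whose log2 differences are given for Hsph1 and then Hsp90ab1. These were 0.17 and 0.16 with total counts and 0.18 and 0.17 with a minimum of 50 counts. With loess offsets they were 0.027 and -0.094, and once the promoter share was a covariate -0.072 and -0.066. Both calls ended too with the 30 and 90 min libraries of the knockout control left out.

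The remaining promoters did not pass. Hspa5, the HSP70 of the endoplasmic reticulum (2:34771396-34772682), had 33.6, 42.5 and 52.7 CPM in the knockout control and 31.7, 34.7 and 39.8 CPM in the wild type control, a difference of 0.25 ± 0.09 (edgeR adjusted p = 0.0569). Hspa1a (17:34970979-34972886) had 21.0, 25.6 and 30.4 CPM in the knockout control and 18.4, 21.8 and 24.7 CPM in the wild type control, with a difference of 0.25 ± 0.09 (edgeR adjusted p = 0.0732), and Hspa1b had 0.21 ± 0.09 (edgeR adjusted p = 0.119). The ranges of all 3 genes overlapped. Hsp90aa1, the inducible HSP90, stood at 0.17 ± 0.09 at its leading promoter (12:110695506-110696928) and at 0.04 ± 0.08 at its other promoter interval (12:110701622-110704035), which with loess offsets was called lower, at -0.20 ± 0.06 (edgeR adjusted p = 0.0325). Hspb1 (5:135887529-135889490) had the smallest leading difference, 0.07 ± 0.09. The Hspa8 spanning interval, outside the rule, had 79.5, 99.8 and 115.9 CPM in the knockout control against 65.2, 72.0 and 76.3 CPM in the wild type control. Its ranges did not overlap, as for Dnajb1, and it was higher by 0.46 ± 0.09 (edgeR adjusted p = 1.02e-04). That call ended at a log2 difference of 0.08 with loess offsets and 0.029 once the promoter share was a covariate.

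The knockout control also had the larger share of counts in promoters, 41.0% to 43.1% against 38.1% to 39.7% in the wild type control. With that share as a covariate, 0 chaperone intervals and 56 of all intervals were called (against 10324 without it), and the Dnajb1 promoter difference was 0.09 ± 0.09 (edgeR adjusted p = 0.852). The controls do not overlap in this share, so it and the line cannot be told apart in these libraries. Leaving out 1 library gave 2 to 11 called intervals, with 11 without the 150 min library of the knockout control. With the 30 and 90 min libraries of that control left out, 2 intervals were called, the promoters of Dnajb1 (0.40 ± 0.09, edgeR adjusted p = 0.00823) and Hspd1 (0.39 ± 0.09, edgeR adjusted p = 0.00996).

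**Figure D3:**
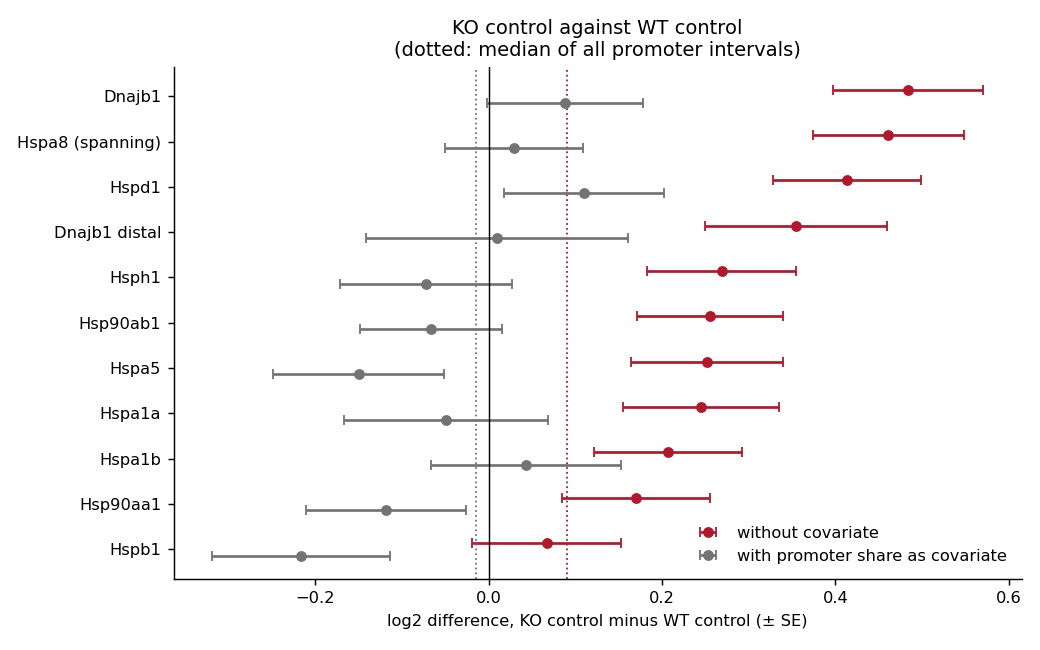
Log2 difference of knockout control minus wild type control with its SE (horizontal axis) for the leading promoter of each gene, the distal Dnajb1 interval and the interval spanning the Hspa8 start, without (red) and with (grey) the promoter share of each library as a covariate; dotted lines are the medians of all promoter intervals. All red points are above 0, at 0.07 to 0.48, and with the covariate 6 of the 9 leading promoters are below 0.

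The same difference of backgrounds was next read in the transgenic lines, whose libraries are separate from those of the controls. The fit took in all lines, so its time terms and its estimate of spread also drew on the control libraries. In the knockout Firre line against the wild type Firre line, 0 of 32 intervals were called, against 1.16% of all intervals, with 0 called by DESeq2 and limma-voom. The smallest p was that of Hspa1b (17:34957627-34960019), which had 26.9, 33.9 and 37.1 CPM (lowest, median and highest) in the knockout Firre line and 25.9, 24.2, 30.6, 27.1 and 32.0 CPM at 0, 30, 90, 120 and 150 min in the wild type Firre line. These overlapped, and the log2 difference was 0.26 ± 0.09 (edgeR adjusted p = 0.118). Without the 150 min library of the wild type Firre line, 4 of the 10 promoters were called higher, against 6.29% of all promoter intervals and 2.26% of all intervals. They were Dnajb1 (0.31 ± 0.08, edgeR adjusted p = 0.0147), Hspa1b (0.32 ± 0.09, edgeR adjusted p = 0.0194), Hspa1a (0.33 ± 0.09, edgeR adjusted p = 0.0241) and Hspa5 (0.30 ± 0.08, edgeR adjusted p = 0.0243). The Hspd1 promoter was not among these 4. With all libraries kept, it had 52.2 ± 5.33 CPM in the knockout Firre line against 52.0 ± 10.05 CPM for the wild type Firre line. That difference was 0.03 ± 0.09 (edgeR adjusted p = 0.906). It included the 150 min library of the wild type Firre line, at 67.6 CPM, where the line's other libraries had 44.0 to 56.5 CPM. The Hspd1 values therefore cannot be set directly against the 4 calls. The 23 fits that each left out 1 library called 0 to 4 intervals. Without the wild type Firre line at 150 min, the promoter share was 40.9% to 42.3% in the knockout Firre line. It was 39.1% to 41.0% in the wild type Firre line, and the part of this share in the 4 calls was not tested.

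Over time after doxycycline, values after 0 min were mostly above the value at 0 min in Firre and control lines alike, though no change passed the test. With TMM scaling, the mean of the later times was above the 0 min library for 9 of 9 leading promoters in the knockout Firre line, 9 in the wild type Firre line, 8 in the knockout control and 8 in the wild type control. The medians of the 9 log2 ratios were 0.26, 0.17, 0.15 and 0.15 in that order, against 0.11, 0.04, 0.08 and 0.05 for all promoter intervals. Each line has a single 0 min library, so every ratio in a line shares it. In the fitted response of the control lines 10 of 10 promoter values were positive with TMM, 8 with total counts, 7 with loess offsets and 8 when the promoter share was a covariate. In the knockout Firre line the 0 min library was the lowest of the 6 for 9 of 9 promoters, and it also had the lowest promoter share of its line, 40.9%. The 0 min libraries of the knockout control (41.0%) and the wild type control (38.1%) had the lowest share of their lines too. That of the wild type Firre line did not.

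Hspa5 in the knockout control gave the largest ratio, 0.38 on the log2 scale. It had 37.8, 44.2, 41.1, 50.6, 45.7 and 43.5 CPM at 0, 30, 60, 90, 120 and 150 min in the knockout Firre line, against 33.6, 44.8, 41.0, 52.7, 44.1 and 36.3 CPM in the knockout control. The time with the highest value was 90 min in both knockout lines. In the wild type background the Firre line had 34.7, 34.1, 39.4, 36.2 and 51.8 CPM without 60 min, against 31.7, 32.6, 37.1, 32.8, 39.8 and 36.5 CPM in the control. The mean response of the control lines over 30 to 150 min was 0.27 ± 0.12 at this promoter, the only 1 of the 32 intervals with an unadjusted p under 0.05 (edgeR adjusted p = 0.942). Hspd1 was at 42.6 CPM at 0 min in the knockout Firre line and 51.8 to 57.6 CPM afterwards, with the highest value at 60 min. Hspa1a was at 22.9 CPM at 0 min and 24.0 to 30.8 CPM afterwards in that line, with the highest at 150 min.

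No response to Firre over time was called. For the change from 0 min in the Firre lines minus that in the control lines, averaged over 30 to 150 min, edgeR called 0 of 32 intervals, with 0 at an unadjusted p under 0.05 and 0% of all intervals called, and DESeq2 and limma-voom called 0 of the 32. The medians over the 10 promoters and over all promoter intervals were 0.05 and 0.01. The smallest p belonged to the intronic Hsp90aa1 interval 4571 bp from the TSS (12:110698007-110698308). It had 4.17, 4.02, 4.06, 5.03, 4.71 and 5.48 CPM at 0 to 150 min in the knockout Firre line and 5.81, 4.26, 4.11, 7.60, 6.55 and 4.36 CPM in the knockout control. In the wild type background it had 5.05, 3.92, 5.16, 5.19 and 6.59 CPM in the Firre line and 6.73, 3.99, 3.94, 5.79, 4.54 and 5.02 CPM in the control. The values crossed between lines, and the response was 0.40 ± 0.27 (edgeR adjusted p = 1). For the mean response of the control lines themselves, edgeR, DESeq2 and limma-voom called 0 of 32, with 0% of all intervals called by edgeR. The spread of these single libraries set the SE of a promoter's response at 0.17 to 0.18 on the log2 scale.

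**Figure D4:**
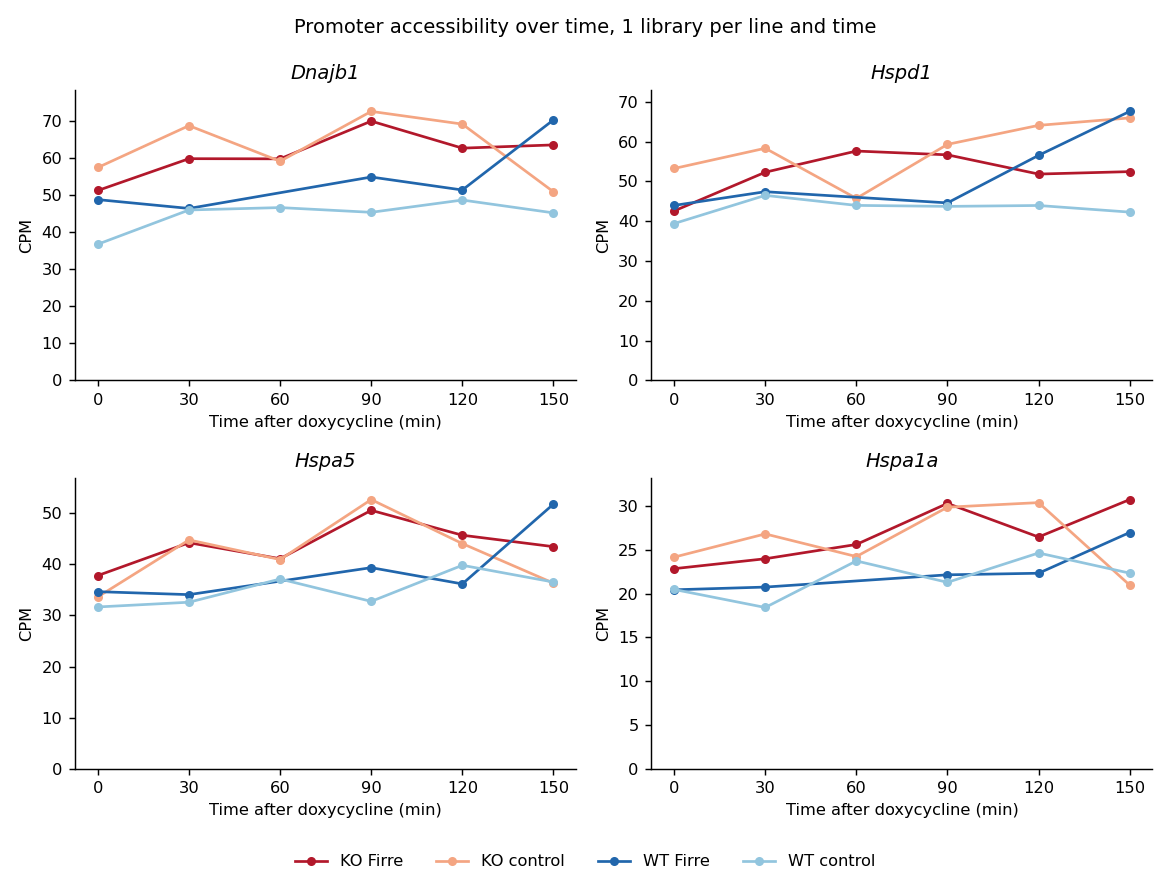
CPM (vertical axes, from 0) of the Dnajb1, Hspd1, Hspa5 and Hspa1a promoters against time after doxycycline in min (horizontal axes), 1 library per line and time. The Dnajb1 promoter lies higher in the knockout control (51.0 to 72.7 CPM) than in the wild type control (36.8 to 48.8 CPM) at every time, and the wild type Firre line is highest at 150 min.

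The sum of the 9 leading promoters differed between libraries. It was 367.0 to 467.8 CPM in the knockout Firre line, 355.1 to 512.9 CPM in the wild type Firre line, 378.8 to 464.7 CPM in the knockout control and 317.4 to 364.4 CPM in the wild type control. The library with the lowest sum, the wild type control at 0 min, had the lowest promoter share (38.1%), and that with the highest sum, the wild type Firre line at 150 min, had the highest (44.3%). The part of this share in the sums was not tested.

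**Figure D5:**
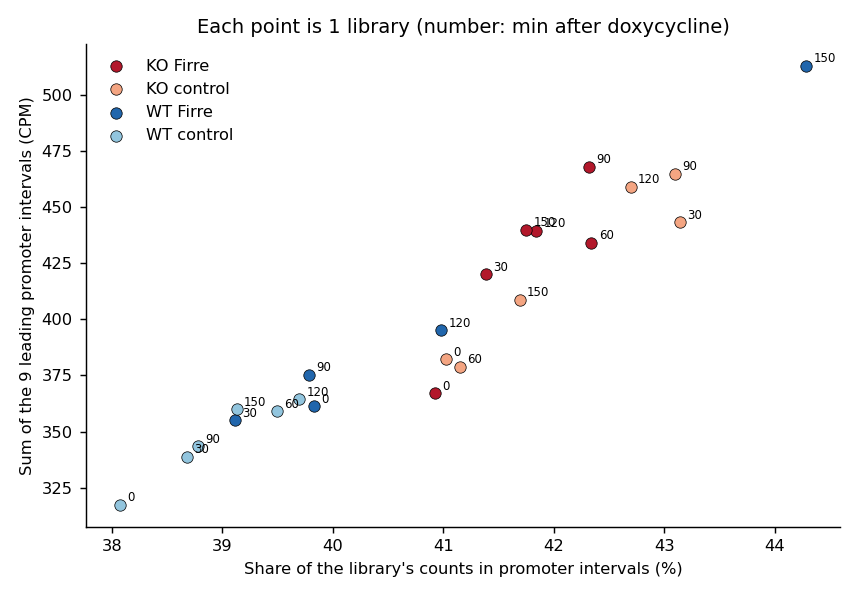
Sum of the 9 leading promoters in CPM (vertical axis, not starting at 0) against the share of the library's counts in promoter intervals in % (horizontal axis), 1 point per library, labelled with its time in min. The libraries run from 317.4 CPM at 38.1% to 512.9 CPM at 44.3%.

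Among the promoters of other genes whose pattern was most like the mean of the chaperone promoters over the 23 libraries were Hnrnpa1 (Pearson r = 0.977 on log2 CPM), Sqle (0.977), Klf10 (0.976) and Trim24 (0.974). Hnrnpa1 encodes an RNA-binding protein, Sqle an enzyme of sterol synthesis, and Klf10 and Trim24 nuclear regulators of transcription. Of 19120 other promoter intervals 14.8% had an r above 0.8, and the median was 0.258. These values describe libraries that share depth and promoter share and carry no test.

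The wider chaperone network was read in 62 other genes, of which 38 had a tested promoter, with 42 promoter intervals. In the knockout control against the wild type control 22 of these 42 were higher and 0 lower with TMM scaling (19 and 1 with total counts), with a median log2 difference of 0.29 against 0.09 for all promoters, of which 16.4% were called higher. Of the endoplasmic reticulum genes, 11 of 13 were higher, with a median of 0.37. They were Canx, a lectin chaperone, at 0.48 ± 0.09, Xbp1, a transcription factor of the unfolded protein response, at 0.44 ± 0.09, the disulfide isomerases Pdia4 (0.44 ± 0.09) and Pdia3 (0.38 ± 0.08), the HSP70 relative Hspa13 (0.38 ± 0.09), Manf (0.38 ± 0.09), Creld2 (0.37 ± 0.09), the J-domain genes Dnajb9 (0.34 ± 0.09), Dnajb11 (0.31 ± 0.09) and Dnajc3 (0.29 ± 0.09), and Sdf2l1 (0.31 ± 0.09). In the list of cytosolic co-chaperones and heat shock factors, which also took in Hspb11, 9 of 23 intervals were higher. Dnajc7 (0.50 ± 0.09), Hspb11 (0.48 ± 0.09) and the HSP110 gene Hspa4 (0.46 ± 0.08) led, followed by the HSP70 to HSP90 adaptor Stip1 (0.42 ± 0.09), the exchange factors Hspbp1 (0.41 ± 0.09) and Bag1 (0.37 ± 0.08), the heat shock factor Hsf2 (0.31 ± 0.09), the immunophilin Fkbp4 (0.30 ± 0.08) and the ubiquitin ligase Stub1 (0.28 ± 0.09). Of the mitochondrial genes 2 of 5 were higher, the protease Lonp1 (0.34 ± 0.09) and the exchange factor Grpel1 (0.32 ± 0.09), and of the chaperonin subunits 0 of 1. Each of these 22 had an edgeR adjusted p of 0.05 or less. There were 5 higher and 2 lower with loess offsets, and 0 called with the promoter share as covariate. With the 30 and 90 min libraries of the knockout control left out 6 were called. Leaving out 1 library gave 16 to 26, lowest without the knockout control at 90 min, and 8 to 11 for the endoplasmic reticulum genes. Of these 23 fits, 8 did not call Stub1, 6 did not call Dnajc3 and 5 did not call Hsf2. Sdf2l1, Grpel1 and Fkbp4 were each not called in 3, and Dnajb11 in 2. The rest of the 22 were called in all 23.

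In the other comparisons of this network few intervals were called. The promoter of Fkbp5, an HSP90-binding immunophilin, was lower in the knockout Firre line than in its control, with a log2 difference of -0.37 ± 0.09 (edgeR adjusted p = 0.029), 1 of 42 where 0.227% of all promoter intervals were lower. DESeq2 did not call it, and the edgeR call ended when any of 5 libraries was left out: those at 0, 120 and 150 min of the knockout line with Firre, and those at 30 and 120 min of the knockout control (edgeR adjusted p up to 0.119). In the knockout Firre line against the wild type Firre line 3 of 42 were higher, where 1.04% of all promoter intervals were, namely Bag3 (0.34 ± 0.09), Dnajc7 (0.34 ± 0.09) and Canx (0.31 ± 0.09), with edgeR adjusted p of 0.0284, 0.0306 and 0.0485. When 1 library was left out this count was 0 to 11, with 0 without the 30 min library of the knockout Firre line and 11 without the 150 min library of the wild type Firre line. Of 23 such fits, 8 did not call Bag3, 9 did not call Dnajc7 and 20 did not call Canx. The count was 1 with DESeq2 and 0 with the promoter share as covariate. For the wild type Firre line against its control, the difference between backgrounds and both time responses, edgeR called 0 of 42.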

How the data were processed

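Per the file headers and values, the authors deposited raw counts per consensus interval and library, with a table of interval positions and nearest TSS. MACS2 2.2.7.1, featureCounts and mm10 are named, per the submitters' processing notes; aligner, duplicate removal and read shift: not given in the sources used here. From these counts, filterByExpr (minimum 10 counts) kept 129515 intervals. After TMM scaling, edgeR 4.0.16 (R 4.3.3) gave quasi-likelihood tests with line and time as terms (14 residual degrees of freedom) or line, time and transgene by time (9). Benjamini-Hochberg adjustment ran over all tested intervals, calls were made at 0.05 or less, and SEs were derived from the F statistic. With 1 line per group, p-values reflect only library spread within lines, which may be technical. DESeq2 1.42.0, limma-voom (limma 3.58.1), other scalings and filters, a promoter share covariate and leaving out libraries were alternatives. The fits were checked on simulated counts. No library was a copy of another (0 of 55 pairs within lines). Counting limits cover counting error only. The leading promoter of each gene was named, with other intervals where called and otherwise the smallest p. Of the 5 promoters most like the mean of the leading promoters, 1 is not reported here. The members and lists were chosen with earlier results of these data known.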

Additional observations from a re-analysis of the deposited data

Results flagged for a closer look

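Among 44 sets of libraries (the leading promoters, the Hspa8 spanning interval and the distal Dnajb1 interval in each line), 4 held a library that stood apart from the rest of its line, where chance gives about 1 in 20. The sets of a line share the same libraries and are not independent, so that rate cannot be set against the 4. In 3 of the 4 the library was the 150 min library of the wild type Firre line. It had 27.0 CPM at the Hspa1a promoter, where the line's other libraries had 20.5 to 22.3, 43.2 CPM at Hspb1, where they had 31.6 to 34.3, and 50.8 CPM at Hsph1, where they had at most 37.9. The other was the Dnajb1 promoter in the wild type control at 0 min, at 36.8 CPM, where the later libraries of that line had 45.3 to 48.8 CPM. These libraries also had the highest (44.3%) and the lowest (38.1%) promoter share of all, and the part of that share was not tested.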

How the results depend on the processing

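For the knockout control against the wild type control, 5 chaperone intervals were called. With loess offsets there were 2, of which 1 was lower, with the promoter share as covariate 0, with the 30 and 90 min libraries of the knockout control left out 2, and 2 again with the 150 min library of the wild type Firre line left out as well, a choice made after seeing the data. Leaving out 1 library gave 2 to 11 calls, with 2 or 3 without the knockout control at 0, 30, 90 or 120 min or the wild type control at any time other than 60 min, 11 without the knockout control at 150 min and 8 without the wild type Firre line at 150 min. The Dnajb1 promoter was called in 23 of 23 such fits and in 9 of the 10 other settings, and Hspd1 in 23 and 8. Hsp90ab1 reversed to -0.094 with loess offsets and -0.066 with the covariate, and Hsph1 to -0.072 with the covariate. Total counts shifted the median of all intervals by -0.12, and the share of higher calls was 34.8% against 69.0%, with 2 chaperone intervals higher and 3 lower. Over all intervals, 10324 calls compared with 6074 by DESeq2, 6293 with loess offsets and 2135 with those 2 libraries of the knockout control left out. For the knockout Firre line against the wild type Firre line, added after seeing the data, 0 calls became 4 without the wild type Firre line at 150 min (0 to 4 over all 23 libraries left out) and 4 with the same 3 libraries left out. The labels number no replicates. Libraries of different lines were matched by time through a term of the fits, and 5 intervals were called without it.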
